A study of Mus musculus with 4 samples.

Results

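The immunoglobulin constant region genes encode the ends of antibody chains that do not vary with the antigen. The 7 genes described here are the heavy chain genes Ighm and Ighd, the kappa light chain gene Igkc, the lambda light chain genes Iglc1, Iglc2 and Iglc3, and Jchain, which encodes the joining chain of secreted antibody. They were taken by symbol from the deposited feature lists, where each of the 7 was found among 32285 genes. They were described in mouse bone marrow cells positive for the receptor Kit and for CD45.2, taken 10 weeks after a transplant. The series holds 1 single-cell library per group: a control, an Mll3-deleted, an Mll4-deleted and an Mll3/4-deleted library. Mll3 and Mll4 are histone methyltransferases encoded by Kmt2c and Kmt2d. The labels give neither the promoter that drove the deletion, nor the number of mice pooled, nor the meaning of the 2 hashtag antibodies.

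A B cell assembles its heavy chain before its light chain. Early B precursors already transcribe the µ constant region from promoters upstream of the gene, before a variable segment has been joined to it, and then pair the µ chain with a surrogate light chain. Kappa is joined next and lambda last, the δ chain is made from the same long transcript as µ in maturing cells, and the joining chain belongs to antibody-secreting cells. A UMI, the molecular tag counted here, was read from the 3′ end of the transcript, so that it reports the constant region and not whether a variable segment was joined to it.

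Each group had 1 library, so no test was possible, and every interval is a 95% interval for counting error only. The 4 libraries held between 6622 and 10001 barcodes and between 36413830 and 174795636 gene UMIs, the Mll4-labelled library being the shallowest. After filters, 7146 control, 5860 Mll3-, 5350 Mll4- and 6917 Mll3/4-labelled cells were kept, with median UMIs of 15754, 16963.5, 5142 and 9965. Pairs of libraries shared 9 to 24 cell barcodes. Kmt2c was at 47.9 CPM (UMIs of the gene per 1e+06 gene UMIs) in control, 27.2 in the Mll3-, 59.2 in the Mll4- and 34.8 in the Mll3/4-labelled library. Kmt2d stood at 25.8 CPM in control, 21.6 in the Mll3-, 24.99 in the Mll4- and 24.7 in the Mll3/4-labelled library, so that the 3′ counts did not follow the Mll4 label, and the libraries are named by their labels throughout. B-cell progenitor-like cells numbered 467 of the control cells (6.54%), 368 Mll3- (6.28%), 143 Mll4- (2.67%) and 6831 Mll3/4-labelled cells (98.8%). Clusters named B-cell progenitor-like had all 10 of the markers that name the class in at least 10% of their cells. In the first 3 libraries these cells lay in clusters 0 (low in division genes) and 15 (dividing). In the Mll3/4-labelled library they lay in clusters 20, 21 (dividing) and 22, which held 5019, 1565 and 241 cells of that library and at most 1 cell of any other, with 4 and 2 more of its cells in clusters 0 and 15, so that library and cluster cannot be told apart. Every comparison of control with Mll3/4-labelled B-cell progenitor-like cells therefore sets, nearly throughout, clusters 0 and 15 against clusters 20, 21 and 22.

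In the GENCODE M21 annotation of GRCm38, Ighm (chr12:113418558-113422730) and Ighd (chr12:113406604-113416324) neighbour each other on the minus strand of the heavy chain locus. Igkc is a single exon on the plus strand at chr6:70726435-70726966, inside the same-strand gene Gm30211. Jchain lies on chromosome 5 from 88519809 to 88527891, outside the immunoglobulin loci. The lambda genes lie on the minus strand of chromosome 16, with Iglc1 at 19061618 to 19062071, Iglc3 at 19065230 to 19065681 and Iglc2 at 19198396 to 19200351. The last 120 coding bases of the lambda genes are shown because they decide how far 3′ counts can tell the 3 genes apart. Capitals mark the 39 positions at which the genes are not all alike. Positions are chr16:19061755-19061874 for Iglc1, chr16:19065368-19065487 for Iglc3 and chr16:19198539-19198658 for Iglc2, read 5′ to 3′ on the minus strand of GRCm38.
Iglc1: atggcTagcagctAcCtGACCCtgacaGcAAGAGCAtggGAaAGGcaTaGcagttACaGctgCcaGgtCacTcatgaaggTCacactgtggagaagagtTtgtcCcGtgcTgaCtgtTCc
Iglc2: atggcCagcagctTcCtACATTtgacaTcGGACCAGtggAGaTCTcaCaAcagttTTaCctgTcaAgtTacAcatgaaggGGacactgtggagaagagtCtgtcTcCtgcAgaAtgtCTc
Iglc3: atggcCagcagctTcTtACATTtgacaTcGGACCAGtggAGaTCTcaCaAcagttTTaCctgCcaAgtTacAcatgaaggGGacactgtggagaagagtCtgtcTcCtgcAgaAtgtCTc
Iglc2 and Iglc3 differed at 2 of these 120 bases, while Iglc1 differed from each of them at 38. Over the whole coding part, Iglc2 and Iglc3 were 96.2% identical, and Iglc1 was 73.4% identical to Iglc2 and 74.5% to Iglc3. Over the last 200 bases of the transcripts, Iglc2 and Iglc3 were 90.7% identical, with a longest identical run of 79 bases in the transcript. Iglc2 shared 10.5% of its transcript's 50-base windows with Iglc3, and Iglc1 shared none with either. Counts of Iglc2 and Iglc3 are therefore less certain as separate values than those of Iglc1.

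Ighm and Ighd were far higher in the Mll3/4-labelled library when all kept cells were summed. For Ighm, the order of the libraries was as follows. Control cells held 38.7 CPM (37.7 to 39.7), Mll3-labelled cells 52.1 (50.9 to 53.4), Mll4-labelled cells 45.7 (43.4 to 48.0) and Mll3/4-labelled cells 869.6 (863.1 to 876.2). The Mll3/4-labelled value was 22.5-fold above control, or 4.45 as a log2 ratio with 1 CPM added (4.42 to 4.49), while the Mll3- and Mll4-labelled values were 1.35-fold and 1.18-fold above control. Calls were made on members whose UMIs reached 20 in 1 of the libraries compared. Of 6 such members, 3 were over 2-fold higher in the Mll3/4-labelled library (Ighm, Ighd and Igkc) and 0 were over 2-fold lower on this scale with 1 CPM added, while 12% of 15158 genes were higher and 11.7% were lower. With nothing added the lambda genes, at 1 to 5 UMIs there, were all over 2-fold lower, as given with their levels below. The median log2 ratio of the 6 was 0.57, against -0.01 over all genes. In bulk sums of this kind, more cells of a type and more RNA per cell cannot be told apart. The Mll4-labelled log2 ratio of 0.23 changed sign with the weighting, to -0.48 with each cell given equal weight and -0.91 after thinning each cell to 2000 UMIs. For the Mll3/4-labelled library, with each cell given equal weight the log2 ratio for Ighm was 3.22, and after thinning each cell to 2000 UMIs it was 3.24.

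Within B-cell progenitor-like cells the level of Ighm differed from control by at most 1.19-fold. Control cells held 959.8 CPM (926.0 to 994.5, 3040 UMIs), Mll3-labelled cells 891.0 (856.9 to 926.2, 2563 UMIs), Mll4-labelled cells 1143 (1034 to 1259, 407 UMIs) and Mll3/4-labelled cells 887.7 (881.0 to 894.4, 67374 UMIs). The Mll4-labelled interval lay above the others, the control interval lay above that of the Mll3/4-labelled cells, and the Mll3-labelled interval overlapped both. As a log2 ratio to control, the Mll3/4-labelled value was -0.11 (-0.16 to -0.06), inside the 2-fold bound used for calls. Among the 3 members with enough counts in this comparison, 0 were over 2-fold higher and 1, Igkc, was over 2-fold lower, against 9.49% and 7.39% of 13458 genes. By cluster, Ighm stood at 1053 CPM in cluster 0 and 899.4 CPM in the dividing cluster 15 of control, and at 894.2, 881.9 and 643.9 CPM in clusters 20, 21 and 22 of the Mll3/4-labelled library. Cluster 22 was the lowest and shallow, with a median of 3652 UMIs.

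**Figure D1:**
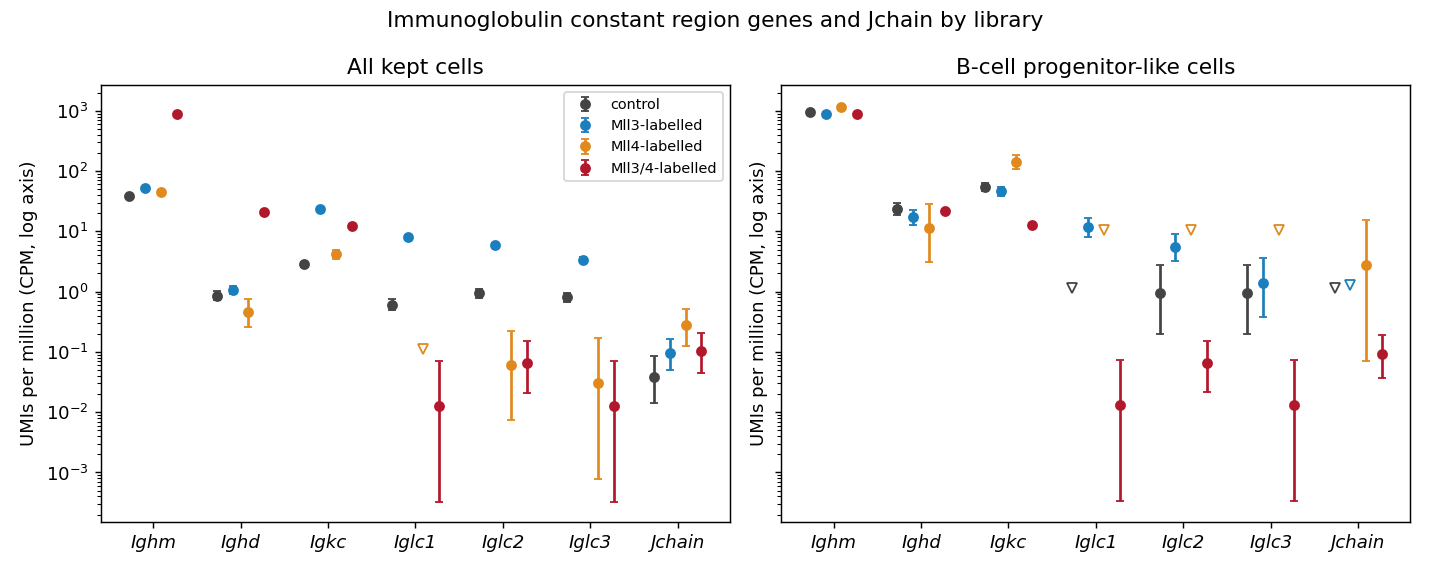
Level of each member in CPM (log axis) in all kept cells (left) and in B-cell progenitor-like cells (right), 1 point per library with its 95% counting interval. Open triangles are upper limits where no UMI was counted. Ighm and Ighd stand out in the Mll3/4-labelled library on the left (869.6 and 21.3 CPM) and not on the right, where Igkc is lowest in that library (12.7 CPM).

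Nearly every B-cell progenitor-like cell carried Ighm. At least 1 UMI was found in 94.4% of the control cells (91.9 to 96.3%), 95.4% in the Mll3-, 81.8% in the Mll4- and 97.5% in the Mll3/4-labelled library, at median depths of 4410, 6521.5, 2276 and 9936 UMIs. In erythroid progenitor-like cells, which should lack the gene, the share was 4.34% in control (median 47469 UMIs), 7.56% in the Mll3- (46215 UMIs) and 2.80% in the Mll4-labelled library (13320 UMIs). After thinning to 2000 UMIs per cell, which left out 30, 18, 69 and 83 B-cell progenitor-like cells, the shares were 82.8%, 81.4%, 81.1% and 72.4%. The thinned Mll3/4-labelled share was the lowest. The thinned count had a mean of 1.93 and an SD of 2.14 over cells there, against 2.12 and 1.85 in control. Mll3-labelled cells were near that spread, at 2.07 and 2.06, and Mll4-labelled cells had 2.23 and 1.93. At least 10 thinned UMIs were found in 1.10% of Mll3/4-, 1.43% of Mll3-, 0% of Mll4-labelled and 0.458% of control cells. Those shares rest on 6748, 350, 74 and 437 thinned cells.

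Ighm was also counted outside the B lineage. The Mll3/4-labelled library had 86 such cells, with 160 Ighm UMIs, and the classes below are those of the other libraries. Among classes of at least 50 cells, the monocyte/macrophage progenitor-like cells held 136.7 CPM in control (126.0 to 148.1), 180.6 in the Mll3- (166.0 to 196.2) and 98.7 in the Mll4-labelled library (88.4 to 109.8). Granulocyte progenitor-like cells held 30.3, 52.4 and 75.3 CPM in that order, HSC/MPP-like cells 34.8, 43.0 and 25.3 CPM, and neutrophil-like cells 29.8, 38.2 and 28.5 CPM. In control the last 3 classes overlapped in part: the HSC/MPP-like interval (32.5 to 37.3) met the granulocyte progenitor-like interval (27.3 to 33.6), which covered the neutrophil-like value. Megakaryocyte-like cells lay between 3.13 and 4.81 CPM, and erythroid progenitor-like cells between 0.989 and 2.83 CPM. The Mll4-labelled conventional dendritic-like cells stood at 190.7 CPM (146.2 to 244.5) and the control T/NK/innate lymphoid-like cells at 129.8 CPM (92.3 to 177.4), on 62 and 39 UMIs. Beside these levels stand those of the B-cell progenitor markers. B-cell progenitor-like cells had between 6.48 and 11.7 Ighm UMIs for every 100 UMIs of the 10 B-cell progenitor markers, and the monocyte/macrophage progenitor-like cells had between 155.3 and 212.5. The ratio was 179.8 to 264.2 in neutrophil-like, 62.4 to 226.5 in granulocyte progenitor-like and 82.5 to 103.1 in HSC/MPP-like cells. It was 229.6 in the Mll4-labelled conventional dendritic-like and 433.3 in the control T/NK/innate lymphoid-like cells. The summed level of those 10 markers was 63.6 to 85.0 CPM in the monocyte/macrophage progenitor-like cells and 9794 to 14803 CPM in the B-cell progenitor-like cells, with Cd79b alone at 37.2 to 47.0 CPM in the former. In control, Rag1 was at 0 there. Igkc was at 0 UMIs in the monocyte/macrophage progenitor-like cells of control and of the Mll3-labelled library, and at 10 UMIs in 534 Mll4-labelled cells. Erythroid progenitor-like cells had 13.1 to 23.8 Ighm UMIs per 100 marker UMIs, nearer to the ratio of B-cell progenitor-like cells. The part of free RNA in these values was not tested.

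**Figure D2:**
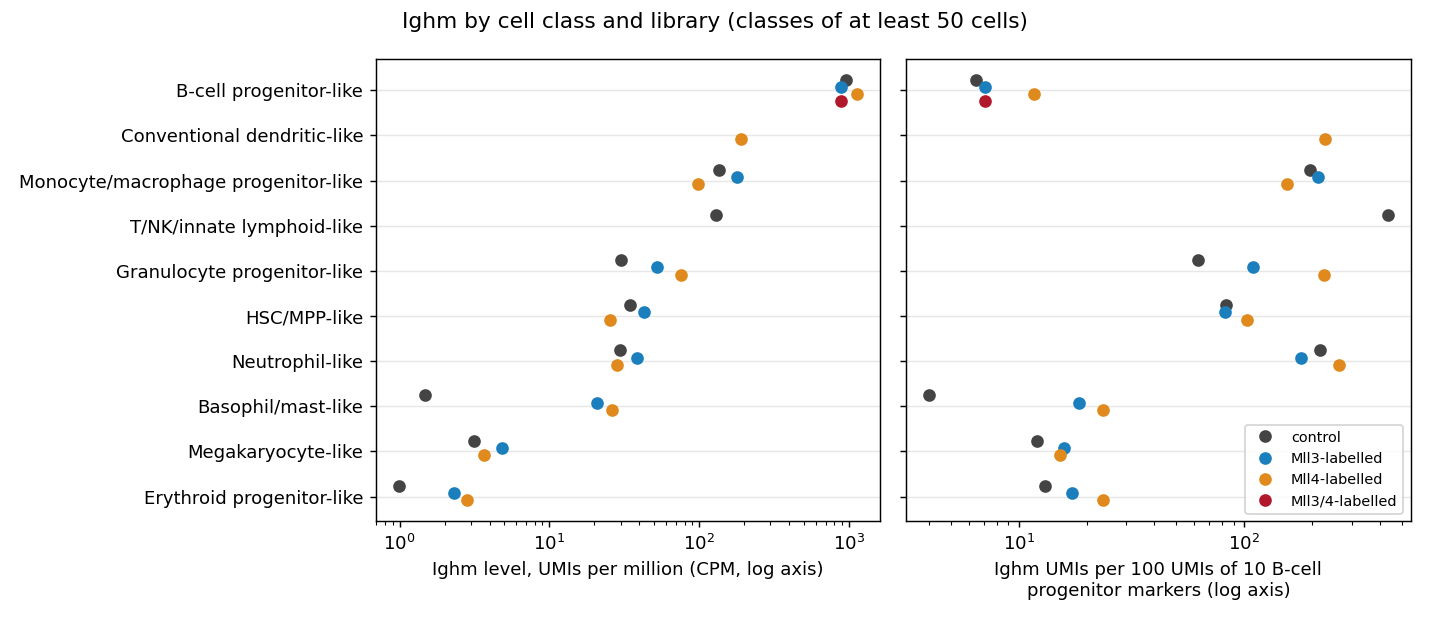
Ighm in each cell class of at least 50 cells, 1 point per library, as CPM (left) and per 100 UMIs of 10 B-cell progenitor marker genes (right), both on log axes. Monocyte/macrophage progenitor-like cells hold 98.7 to 180.6 CPM on the left and 155.3 to 212.5 on the right, where B-cell progenitor-like cells hold 6.48 to 11.7. Other classes are also high on the right, such as neutrophil-like cells at 179.8 to 264.2.

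Ighd, the δ constant region, was likewise far higher in the Mll3/4-labelled library over all kept cells. Control cells held 0.853 CPM (131 UMIs), Mll3-labelled cells 1.07 (146 UMIs), Mll4-labelled cells 0.458 (15 UMIs) and Mll3/4-labelled cells 21.3 (1654 UMIs). The Mll4-labelled value was below control, unlike that of Ighm. The Mll3/4-labelled level was 24.98-fold above control, a log2 ratio of 3.59 (3.34 to 3.85). In B-cell progenitor-like cells Ighd was at 23.7 CPM in control (18.6 to 29.7), 17.0 in the Mll3- (12.6 to 22.5), 11.2 in the Mll4- (3.06 to 28.7, on 4 UMIs) and 21.7 in the Mll3/4-labelled cells (20.7 to 22.8). All 4 intervals overlapped, and the Mll3/4-labelled log2 ratio was -0.12 (-0.44 to 0.22). Its sign depended on the hashtag, with 0.19 in Hashtag1 and -0.52 in Hashtag2 cells. For every 100 UMIs of Ighm there were 2.47 of Ighd in control B-cell progenitor-like cells, 1.91 in the Mll3-, 0.983 in the Mll4- and 2.45 in the Mll3/4-labelled library. The control and Mll3/4-labelled ratios were alike, and both were below those of a cluster led by Igkc and Ms4a1. That cluster had 10.1 in its control cells, on 25 Ighd UMIs, and 4.41 in its Mll3-labelled cells, on 76.

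Of the heavy chain constant genes outside the 7 members, Ighg2b (chr12:113302965-113307933), which encodes a switched γ chain, had the most UMIs in B-cell progenitor-like cells. It was at 69.8 CPM in control B-cell progenitor-like cells (221 UMIs in 15.6% of cells), 50.1 in Mll3-labelled ones (144 UMIs, 12.2%) and 25.3 in Mll4-labelled ones (9 UMIs in 6 cells). In the Mll3/4-labelled library 0 of 6831 such cells had a UMI, which allows a share of up to 0.0439% with 3 counts as the limit, or 0.0540% by the exact interval. The control value was 1765-fold above a floor of 3 counts over that group (0.0395 CPM). That fold leaves out the counting error of control (60.9 to 79.6 CPM), so it is not a strict minimum. Ighg1 had 19 UMIs in 12 Mll3/4-labelled cells and none in the other libraries' B-cell progenitor-like cells. Igha had 1 UMI each in the control and Mll4-labelled B-cell progenitor-like cells, and Ighg2c, Ighg3, Ighe and Iglc4 had none in any library's.

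Igkc separated the libraries in another way. Over all kept cells it was at 2.86 CPM in control (439 UMIs), 23.9 in Mll3-labelled cells (3244 UMIs), 4.18 in Mll4-labelled cells (137 UMIs) and 12.4 in Mll3/4-labelled cells (964 UMIs), so the Mll3-labelled library was the highest. Against control, the Mll3/4-labelled log2 ratio was 1.80 (1.65 to 1.95). That call was lost when cells were given equal weight (0.037) or thinned to 2000 UMIs (0.13), with 10 CPM added (0.80) and among Hashtag2 cells (0.74). Among Mll3-labelled cells 4 of 6 members with enough counts were over 2-fold above control (Igkc, Iglc1, Iglc2 and Iglc3) and 0 were below, against 0.199% and 0.467% of 14550 genes. In the Mll4-labelled library 0 of 6 passed in either direction with 1 CPM added, although Iglc2 and Iglc3 passed downward with nothing added and Iglc1 had no UMI, against 5.74% higher and 2.91% lower of 14452 genes.

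Inside the B-cell progenitor-like class the order of the libraries was another. Igkc was at 54.6 CPM in control cells (46.8 to 63.4, 173 UMIs), 45.9 in Mll3-labelled (38.4 to 54.4, 132 UMIs), 143.2 in Mll4-labelled (106.6 to 188.2, 51 UMIs) and 12.7 in Mll3/4-labelled cells (11.9 to 13.5, 963 UMIs). The Mll3/4-labelled level was 4.30-fold below control, a log2 ratio of -2.02 (-2.24 to -1.80), and lay below the intervals of the other 3 libraries. Cells with at least 1 Igkc UMI made up 15.8% of control (12.7 to 19.5%), 11.96% of Mll3-, 14.7% of Mll4- and 2.52% of Mll3/4-labelled B-cell progenitor-like cells (2.16 to 2.92%). Thinned to 2000 UMIs, the shares were 10.98%, 8.57%, 12.2% and 1.38%. The share in erythroid progenitor-like cells was 1.82% in control, 5.29% in the Mll3- and 1.80% in the Mll4-labelled library before thinning, at the far greater depths given above, and 0%, 0.444% and 0% after it. By cluster, control Igkc was at 105.1 CPM in cluster 0 and 21.9 in the dividing cluster 15, and in the Mll3/4-labelled library it was at 13.7 in cluster 20, 9.80 in the dividing cluster 21 and 0 in cluster 22. In these 2 libraries the dividing cluster was below the larger cluster beside it, and in Mll3-labelled cells the intervals of clusters 0 and 15 overlapped (41.5 CPM, 30.4 to 55.4, and 48.6 CPM, 38.9 to 60.0).

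The Igkc of the Mll3/4-labelled B-cell progenitor-like cells came from few cells. There, 97.5% of cells had 0 Igkc UMIs, and 95 of 6831 cells (1.39%, 1.13 to 1.70%) had at least 3 and held 89.9% of the Igkc UMIs. In control, 21 of 467 cells (4.50%, 2.80 to 6.79%) had at least 3 and held 60.1%. Left without those cells, Igkc was at 1.30 CPM in the Mll3/4-labelled and 22.4 CPM in the control library. The most in 1 cell was 35 UMIs in the Mll3/4-labelled and 10 in the control library, over 6831 and 467 cells. The cut of 3 is a raw count, and median depth was 9936 and 4410 UMIs in that order. The part of depth in these values was not tested. Of the 95 cells, 77 carried Hashtag1 alone and 16 Hashtag2 alone, which is 2.10% of the Hashtag1 and 0.538% of the Hashtag2 cells of the class. Igkc was correspondingly at 20.6 CPM in Hashtag1 and 4.09 in Hashtag2 cells, below the 76.6 and 36.9 CPM of control in both.

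**Figure D3:**
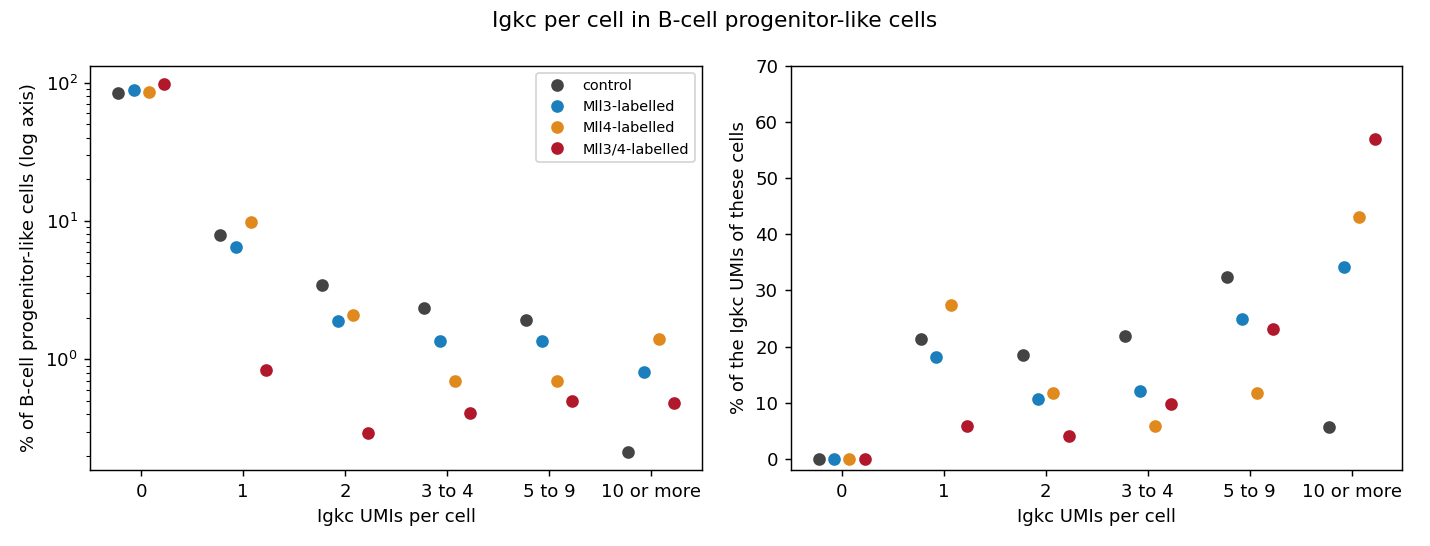
Igkc UMIs per cell in B-cell progenitor-like cells, as the share of cells (left, log axis) and as the share of the library's Igkc UMIs in these cells (right), 1 point per library. In the Mll3/4-labelled library 97.5% of cells have 0 UMIs, and the cells with 10 or more UMIs, 0.483% of the class, hold 57.0% of the UMIs. Counts are raw and not adjusted for depth.

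The 95 cells differed from the 6659 Mll3/4-labelled cells without an Igkc UMI in other members and in a few factors of the loci. Ighd was at 63.6 CPM (49.1 to 81.1) against 21.1 (20.1 to 22.2), and Ighm at 1331 (1262 to 1404) against 880.0. Irf4, a transcription factor that acts on the kappa enhancers, was at 57.8 CPM (44.0 to 74.5, 59 UMIs) against 10.7 (9.96 to 11.5). Irf4 and the genes named next were chosen after their values were seen. Foxo1, a factor that acts on the Rag genes, was lower, at 349.5 CPM (314.2 to 387.7) against 477.4 (472.5 to 482.4). Surrogate light chain genes were not lower, with Igll1 at 1410 CPM against 1027 and Vpreb1 at 3656 against 2820. In control, the 21 cells with at least 3 Igkc UMIs had wide intervals. Against the cells with none, Ighd was at 65.1 CPM (23.9 to 141.7) and 20.3, and Ighm at 900.6 (717.3 to 1116) and 955.4. Foxo1 was at 195.3 (115.7 to 308.7) and 115.5, so that Ighm was not higher and Foxo1 not lower there. Irf4 was at 76.0 CPM (30.5 to 156.5, on 7 UMIs) and 33.1, the same way as in the 95 cells. So were Igll1, at 1671 and 1246 CPM, and Vpreb1, at 4600 and 3344 CPM. Other genes differed too in the 95 cells, with the plasma cell marker Mzb1 at 568.8 CPM against 1000 and the division gene Birc5 at 280.0 against 189.3. In control these were at 922.3 and 894.1, and at 195.3 and 436.2. Median depth was 8999 UMIs in the 95 Mll3/4-labelled cells and 9958 in the others, and 1 of the 95 was positive for both hashtags. Of the 95, 77 carried Hashtag1 alone. Hashtag1 cells of this class and library held Ighd at 25.9 CPM and Ighm at 942.0, against 16.5 and 823.9 in Hashtag2 cells. The part of the hashtag was not tested.

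Surface CD117, the Kit protein, was far higher on the Mll3/4-labelled B-cell progenitor-like cells, with medians of 138 to 368 antibody UMIs over their clusters against 54 to 84 in the other libraries' clusters, while B220, a B-cell form of CD45, had medians of 8 to 15 against 164 to 203.5. The cells of each library were ranked by CD117 count and divided into 3 sets of near-equal size. Mll3/4-labelled Igkc was at 19.97 CPM in the set with the least CD117 (18.1 to 21.9), 15.3 in the middle set (13.8 to 16.9) and 5.29 in the highest set (4.50 to 6.18). Ighd went the same way, at 26.7, 23.0 and 17.1 CPM, and Ighm was at 909.7, 908.6 and 854.7 CPM. Median UMIs per cell were higher with CD117, at 8711, 9755 and 11701, and the part of depth or division in these values was not tested. In control the CD117 sets overlapped for all 3 genes, with Igkc at 51.2 (38.4 to 67.0), 49.4 (36.9 to 64.8) and 62.9 CPM (48.8 to 79.7). By B220, Mll3/4-labelled Igkc was highest in the lowest set (23.0 CPM, against 8.36 and 8.70), and control Igkc was lowest there (29.8 CPM, against 65.8 and 77.9).

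**Figure D4:**
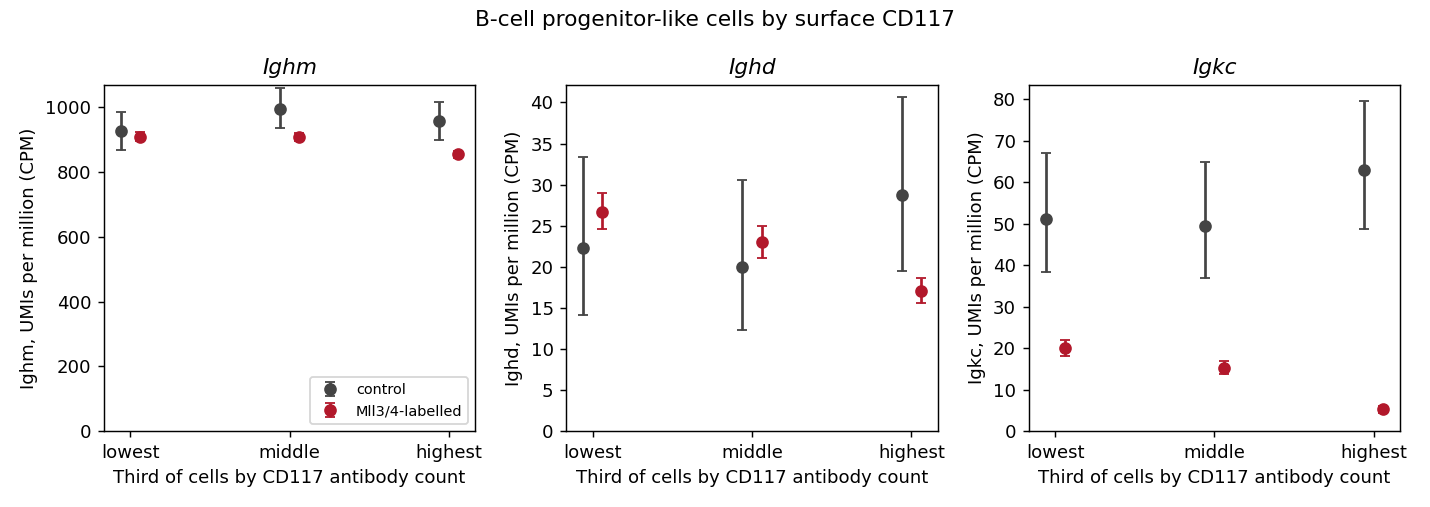
Ighm, Ighd and Igkc in CPM in B-cell progenitor-like cells of 2 libraries, control and Mll3/4-labelled, in 3 sets by CD117 antibody count within each library, with 95% counting intervals. Mll3/4-labelled Igkc is at 19.97, 15.3 and 5.29 CPM from the lowest to the highest set, and the control intervals overlap.

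The Mll4-labelled value rested on very few cells. In B-cell progenitor-like cells of that library 1 of 3 members with enough counts was over 2-fold above control, Igkc at a log2 ratio of 1.37 (0.90 to 1.83), and 1 was below, Ighd at -1.01 (-2.63 to 0.33) on 4 UMIs, against 8.07% and 8.68% of 8721 genes. The Ighd call was lost under several alternatives, its values ranging from -1.58 to -0.46. Of the 51 Igkc UMIs of these cells, 60.8% lay in 4 cells. The Igkc call was lost when cells were given equal weight (0.49), when they were thinned (0.45), when cells were picked by markers alone (0.48), with the Igkc/Ms4a1 cluster added (0.79) and among Hashtag1 cells (0.02). Of 4 members tested in Mll3-labelled B-cell progenitor-like cells, 1 was over 2-fold above control, against 0.417% of 8863 genes, and 0 were below, against 1.85%. That 1 was Iglc1, at a log2 ratio of 3.68, whose 34 UMIs lay in 3 cells, 28 of them in 1 cell; it was 0.00 among Hashtag2 cells.

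The lambda genes were nearly absent from B-cell progenitor-like cells outside the Mll3-labelled library. Iglc1, Iglc2 and Iglc3 had 0, 3 and 3 UMIs in control, 34, 16 and 4 in the Mll3-, 0, 0 and 0 in the Mll4- and 1, 5 and 1 in the Mll3/4-labelled library. The share of kappa among the light chain UMIs of these cells was 96.6% in control (92.8 to 98.8%), 71.0% in the Mll3- (63.9 to 77.4%), 100% in the Mll4- (93.0 to 100%) and 99.3% in the Mll3/4-labelled cells (98.5 to 99.7%). These intervals count UMIs and not cells, and 28 Iglc1 UMIs of the Mll3-labelled cells lay in 1 cell. Of 16 Mll3-labelled cells with at least 3 light chain UMIs, 13 had kappa alone and 2 had mostly lambda. Over all kept cells the Mll3-labelled library held the most, with Iglc1 at 8.10 CPM against 0.605 in control, Iglc2 at 5.91 against 0.944 and Iglc3 at 3.37 against 0.807. The Mll4- and Mll3/4-labelled libraries had 3 and 7 lambda UMIs in all. The added 1 CPM holds the log2 ratios of such low genes near 0, and in the Mll3/4-labelled library Iglc1 was at -0.66, Iglc2 at -0.87 and Iglc3 at -0.84. With nothing added, on 1, 5 and 1 UMIs against 93, 145 and 124 in control, they were at -5.56 (-10.87 to -3.04), -3.87 (-5.52 to -2.62) and -5.97 (-11.29 to -3.47). Of those control UMIs, Hashtag1 cells held 92, 128 and 115, and Hashtag2 cells 1, 6 and 9. The 22 control cells of the Igkc/Ms4a1 cluster held 98.9%, 84.8% and 94.4% of them. Among Hashtag2 cells Iglc1 was not lower, at 0.0132 CPM for control and 0.0284 CPM for Mll3/4-labelled cells, on 1 UMI each. Iglc2 and Iglc3 had no UMI in Mll3/4-labelled Hashtag2 cells. In Mll4-labelled cells Iglc1 had 0 UMIs, and with nothing added Iglc2 was at -3.95 (-7.01 to -2.07) and Iglc3 at -4.73 (-10.04 to -2.22), on 2 and 1 UMIs.

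Most light chain UMIs of the Mll3-labelled library lay in 1 group of cells. A cluster led by Igkc and the B-cell surface gene Ms4a1, found at a finer clustering and chosen after the data were seen, held 22 control, 146 Mll3-, 4 Mll4- and 0 Mll3/4-labelled cells. The clustering did not use the immunoglobulin genes. At the coarser setting these cells lay in an unnamed cluster of 290 cells. This cluster held 89.1% of the Igkc UMIs of the Mll3-labelled library and 40.5% of those of control. Without it, the Mll3-labelled log2 ratios over all kept cells were 0.41 for Igkc, 0.79 for Iglc1, 0.11 for Iglc2 and 0.11 for Iglc3, so that all 4 calls were lost.

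In this cluster all members but Jchain were at levels far above the progenitors. Ighm was at 3942 CPM in control cells (3466 to 4465) and 3849 in Mll3-labelled cells (3669 to 4035), 4.11-fold and 4.32-fold above the progenitors of the same library. Ighd was at 399.0 CPM (258.2 to 589.0) and 169.8 CPM (133.8 to 212.5), so the control cells were higher. Igkc was at 2841 CPM (2439 to 3290) and 6460.2 CPM (6227 to 6700.0), with the Mll3-labelled cells higher. Median depth was 2669.5 and 2551.5 UMIs. Iglc1 was at 1468 and 2234 CPM, Iglc2 at 1963 and 1725 CPM, and Iglc3 at 1867 and 985.1 CPM. Jchain had 0 UMIs in the 22 and 146 cells.

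A mature B cell usually makes either kappa or lambda, and the cells of this cluster were read for both. Genes of earlier stages were also counted in it. Its control cells held Rag1 at 430.9 CPM, Vpreb1 at 1005 and Kit at 319.2, beside Ms4a1 at 446.9. In its Mll3-labelled cells these were at 225.6, 69.2 and 138.5, beside 929.3. How mature the cells were was not tested. Kappa made up 34.9% of light chain UMIs in control cells (30.8 to 39.2%) and 56.7% in Mll3-labelled cells (55.3 to 58.0%). Of the 15 control cells with at least 10 light chain UMIs, 2 were at least 90% kappa, 6 at least 90% lambda and 7 in between. Of the 110 such Mll3-labelled cells, 22 were at least 90% kappa, 29 at least 90% lambda and 59 in between. The 59 cells in between had a median of 53 light chain UMIs, of which a median of 71.8% were kappa, and a median of 13 UMIs of the lesser chain. None of the 59 was positive for both hashtags, although a doublet of cells with the same hashtag would not be either. Their median depth was the highest, at 2957 UMIs, against 2707.5 in the kappa cells and 2233 in the lambda cells. Erythroid progenitor-like cells of the same library had a mean of 0.125 light chain UMIs and a maximum of 61 at a median depth of 46215 UMIs. Iglc1, which shares no 50-base window with Iglc2 or Iglc3, gave 37.7% of the lambda UMIs of the 59 cells and 54.3% of those of the lambda cells. It gave 0% in the kappa cells, which had 0, 5 and 11 UMIs of Iglc1, Iglc2 and Iglc3. In control, Iglc1 gave 42.6% in the 7 cells in between and 19.0% in the 6 lambda cells. The part of doublets, free RNA and read assignment in the cells in between was not tested.

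**Figure D5:**
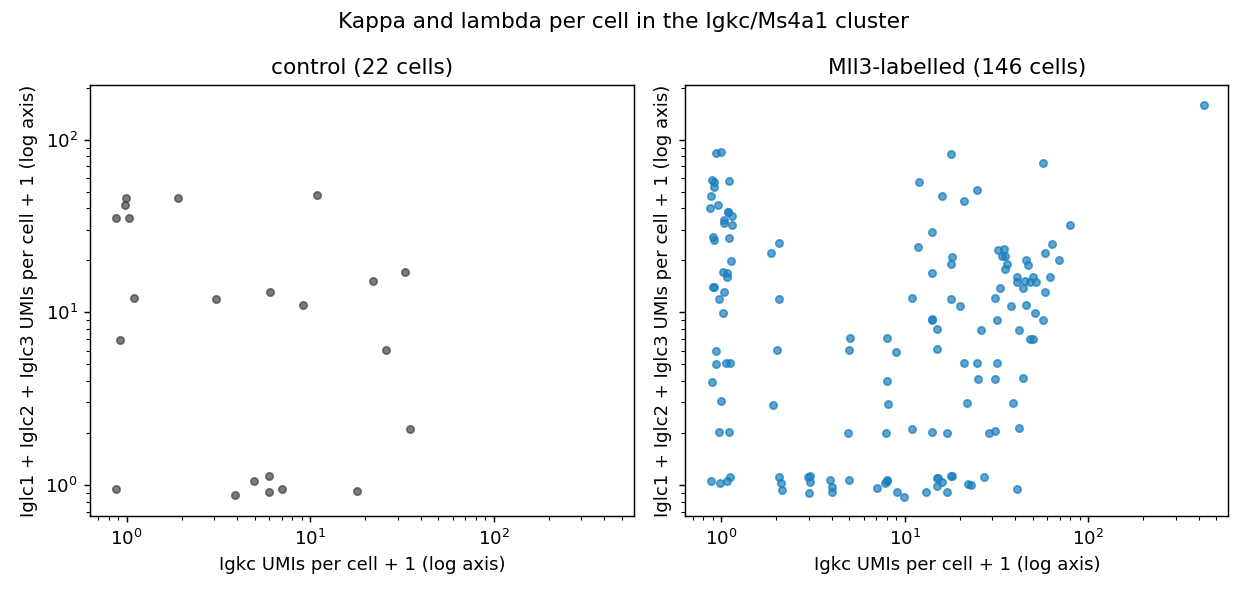
Igkc UMIs against the sum of Iglc1, Iglc2 and Iglc3 UMIs, each plus 1 on log axes with a small random offset, 1 point per cell of the Igkc/Ms4a1 cluster in control (22 cells, left) and among Mll3-labelled cells (146 cells, right). Points along the axes carry 1 kind of light chain, and 59 Mll3-labelled cells with at least 10 light chain UMIs carry both kinds.

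Jchain was close to absent from kept cells. It had 6 UMIs in control, 13 in the Mll3-, 9 in the Mll4- and 8 in the Mll3/4-labelled library, never more than 1 in a cell, and 36 UMIs in 25273 cells in all. In B-cell progenitor-like cells the counts were 0, 0, 1 and 7. Over all barcodes, however, 2206 Jchain UMIs were deposited, and 4 barcodes held 2152 of them (97.6%). All 4 had been removed as doublets by their score. Each was positive for a single hashtag, as a doublet of cells with the same hashtag would also be. Whether they were doublets was not tested. The pair from the Mll3-labelled library held 703 and 1003 Jchain UMIs, with 7331 and 8419 Igkc UMIs, 2212 and 2672 Ighm UMIs and no Ighd UMI. The members made up 38.6% and 57.0% of all their UMIs. These barcodes had 26739 and 21358 UMIs and CD117 counts of 368 and 44, while the CD117 counts of the Mll4-labelled pair were 20 and 13. Of the pair from the Mll4-labelled library, 1 barcode had 135 Jchain, 646 Igkc and 377 Ighm UMIs. The other had 311 Jchain and 1521 Igkc UMIs, 0 Ighm UMIs and 542 UMIs of Igha, the α heavy chain of mucosal antibody. Kappa made up 98.3 to 99.3% of the light chain UMIs in the 4 barcodes, and between 5 and 8 of the 8 plasma cell markers fixed for naming were detected, with Xbp1, a factor of antibody secretion, at 3 to 28 UMIs and Sdc1 at 0, 0, 2 and 6. With doublets kept, Igkc in the Mll3-labelled library had a log2 ratio to control of 4.74 in place of 2.69, and Jchain had 3.51 in the Mll3- and 3.71 in the Mll4-labelled library.

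Genes that work with the members were compared between Mll3/4-labelled and control B-cell progenitor-like cells, where the median log2 ratio over all genes was 0.02. Of 11 receptor and signalling genes, 6 were over 2-fold lower and 0 higher, against 7.39% and 9.49% of all genes, with a median log2 ratio of -1.45. The Btk kinase stood at 78.3 CPM in control and 4.06 CPM in Mll3/4-labelled cells (-3.97), the Blk kinase at 10.7 and 0.0395 (-3.50, on 34 and 3 UMIs) and the phospholipase gene Plcg2 at 51.5 and 9.33 (-2.34). Cd79a and Cd79b, which encode the signalling chains that µ needs to reach the surface, passed in neither direction, at 1799 and 2998 CPM and at 716.7 and 501.1 CPM. Among 7 surrogate light chain and recombination genes 1 was lower, Vpreb2 at 399.4 CPM in control and 0.883 CPM in Mll3/4-labelled cells (-7.73), and the median was -0.31. Rag1, which cuts the loci for joining, was at 325.2 and 387.8 CPM. Of 9 factors that act on the immunoglobulin loci 5 were lower and 1 higher (median -1.16), against the same 7.39% and 9.49%. Those with the largest change were Spi1 (49.6 and 3.95 CPM, -3.35), Irf8 (81.1 and 8.55 CPM, -3.10) and Spib (27.8 and 3.14 CPM, -2.80). The 1 that was higher was Foxo1, at 119.7 and 475.6 CPM, and it falls outside the naming rule. None of 5 secretion and switching genes passed (median 0.13). In Mll3-labelled B-cell progenitor-like cells none of these 4 lists had a member past 2-fold, with medians of -0.30 to -0.15 against -0.09 over all genes. Among Mll4-labelled ones 0 of 9 receptor and signalling genes passed, 2 of 7 surrogate light chain and recombination genes were lower, 1 of 9 locus factors was higher, and 1 of 4 secretion and switching genes was higher and 1 lower, against 8.07% higher and 8.68% lower of all genes.

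Variable gene transcripts crossed with the members in these cells. An Ighv UMI was found in 93.3% of Mll3/4-labelled B-cell progenitor-like cells, against 5.57% in control, 11.7% among Mll3-labelled cells and 6 of 143 Mll4-labelled cells. The shares for Igkv were 10.2%, 0.857%, 2.72% and 1.40% for the Mll3/4-labelled, control, Mll3- and Mll4-labelled cells, and among the 95 Mll3/4-labelled cells with at least 3 Igkc UMIs it was 15.8%, against 10.2% of those with none. For Ighv the shares were 81.1% of the 95 cells and 93.5% of those with none.

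Over 28 groups of library and class with at least 50 cells, the genes outside the immunoglobulin loci whose level ran most like that of Ighm, among 11574 genes, were Map3k1 (r = 0.92), Tmem243, Cyth1, BE692007 and Arl5c (0.87). For Igkc they were Scd1 (r = 0.895), Fam129c, Spib, Ly6d and Rrm2b (0.87). For Jchain the closest was Clk2 (r = 0.79), then Sec24b, Sbf1, Dcaf12 and Ap1s3 (0.72), on at most 13 Jchain UMIs per library. Each r is Pearson's on log2 of CPM plus 1, and the groups share libraries and depth, so it is a description.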

How the data were processed

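RNA and antibody tags were counted per cell in 4 libraries, 1 per group. The deposited values are raw UMI counts for 32285 genes and 15 antibody tags, made with Cell Ranger 6.1.2 on mm10, per the submitters' processing notes. No normalization was applied before deposit, as the whole-number values show.

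Barcodes with at least 500 genes, at least 1000 UMIs and at most 10% mitochondrial UMIs were kept. Scrublet scores (expected rate 0.06) removed the top 0.8% of barcodes per 1000 as doublets. Cells were clustered with scanpy 1.11.5 (2000 variable genes, 30 components, 15 neighbours, Leiden resolution 1, seed 0) without immunoglobulin, Xist, Y-linked or mitochondrial genes. A cluster was named from its leading markers where at least 3 were detected in 10% of its cells.

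Counts were summed per library and class and divided by the gene total (CPM). Log2 ratios to control had 1 CPM added, and a call was a change past 2-fold with at least 20 counts in either library. Intervals are exact Poisson for counts and Clopper-Pearson for shares, and limits for a count of 0 use 3 counts. With 1 library per group no p-value was computed. Thinning drew 2000 UMIs from each cell and left out shallower cells. Alternatives included TMM scaling (edgeR 4.0.16 in R 4.3.3, used for factors only). The ratio rule was tested on simulated data. Sequences were read from the GENCODE M21 transcripts of GRCm38, an annotation in which 32158 of the 32285 gene identifiers were found.

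All 7 members were named, with genes of lists by a fixed rule of at most 3 with the largest called change. Cd79a, Cd79b, Rag1, Foxo1, Irf4, Igll1, Vpreb1, Mzb1 and Birc5 fall outside that rule and were named after their values were seen. Members and lists were chosen with earlier results of these data known.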

Additional observations from a re-analysis of the deposited data

Results flagged for a closer look

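Barcodes removed as doublets were left out of the comparisons, apart from the alternatives that keep them, and they held most of the Jchain UMIs. They carried 1710 Jchain UMIs among Mll3-labelled and 448 among Mll4-labelled barcodes, against 4 among control and 2 among Mll3/4-labelled ones. Both values stood out because they exceed the control count in data that the main comparisons leave out. The same barcodes held 16105 Igkc UMIs among Mll3-labelled and 2232 among Mll4-labelled ones, against 191 among control ones. The cause was not tested.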

How the results depend on the processing

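No paired analysis was possible because each group had 1 library. The hashtag and Igkc/Ms4a1 cluster settings were chosen after seeing the data. All values are log2 ratios of the Mll3/4-labelled library to control. Over all kept cells Ighm moved from 4.45 to 3.22 with each cell given equal weight, 3.24 thinned, 4.17 with 10 CPM added, 4.56 in Hashtag1 cells, 4.31 in Hashtag2 cells and 4.51 without the Igkc/Ms4a1 cluster. Igkc moved from 1.80 to 1.498 with no cell filter, 1.49 with doublets kept, 0.037 with equal weight, 0.13 thinned, 2.12 with nothing added, 0.80 with 10 CPM added, 2.30 in Hashtag1 cells, 0.74 in Hashtag2 cells and 2.31 without that cluster. In B-cell progenitor-like cells Ighm moved from -0.11 to -0.053 under TMM, -0.19 with a marker gate, -0.18 in Hashtag2 cells and -0.20 with the cluster added. Igkc there moved from -2.02 to -2.55 with equal weight, -2.65 thinned, -1.51 with 10 CPM added, -2.97 with the marker gate, -2.90 in Hashtag2 cells and -3.00 with the cluster added. The direction of these 4 values held under every alternative run, and the other 33 values of theirs moved by less than counting error. Among all other member values, 212 moved and 330 did not. The cause of these moves was not tested. The Mll4-labelled values rest on 143 B-cell progenitor-like cells, and with 1 library per group the spread between mice was not measured.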
